A study of Mus musculus with 18 samples.

Results

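Ins1, Ins2, Iapp, Ucn3, Pcsk1, Pcsk2, Cpe, Pam and Slc30a8 are the genes that make, cut, finish and package the peptides of the beta cell granule. They were chosen by name, as known hormone and processing genes of the beta cell, and make up 9 of the 53090 genes in the count table. All 9 passed the filter on low counts. The study compared sorted beta cells of LIRKO mice, which lack the insulin receptor in the liver, with those of Ctrl mice, each on HFD (taken to be high-fat diet) or on chow. The 4 groups hold 3 LIRKO HFD, 4 LIRKO chow, 5 Ctrl HFD and 6 Ctrl chow libraries. The deletion is in the liver, so the beta cells themselves are not its target, and the labels name neither the Cre line nor the alleles of the Ctrl mice, nor any age, sex, strain or batch. Islets had been cultured overnight and dispersed before cells were gated on scatter and on their own fluorescence, so the RNA is that of cultured islet cells. The labels do not say whether libraries came from separate animals, and p-values here measure only the spread between libraries, which may be technical.

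Insulin is made as preproinsulin, folded and joined by disulfide bonds in the endoplasmic reticulum, and cut in the maturing granule by the convertases PC1/3 (Pcsk1) and PC2 (Pcsk2). Carboxypeptidase E (Cpe) then trims the basic residues left at the cut ends, and zinc brought in by ZnT8 (Slc30a8) lets insulin pack as crystals. Amylin (Iapp) is cut by the same enzymes and amidated at its end by Pam, and urocortin 3 (Ucn3) leaves the beta cell in the same granules and drives somatostatin release from delta cells.

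Total counts per library ran from 19490235 to 51714775. Ctrl HFD replicates 1 and 2 had the lowest totals, and Malat1, a nuclear RNA, took 1.37% and 1.06% of their counts, against 0.0866% to 0.600% in the other libraries. LIRKO chow replicates 1 and 2 were more alike than other libraries of that group, as were LIRKO chow replicates 3 and 4. Their chi-square per degree of freedom was 4.92 and 6.21, against at least 25.8 in all other pairs within a group. Both exceed sampling noise, but that cannot tell separate animals from repeats of 1 source. The libraries were kept as 4. The SDs, exact p-values and groups without overlap that use LIRKO chow may therefore rest on fewer sources than libraries. The members' calls and most counts of calls in the pathway lists that rest on these libraries are also given with them left out or summed. Of the cell type marker lists, this holds only for the endothelial and macrophage counts between diets. Beta cell markers were abundant in every library, with a summed level of at least 99830 CPM (counts per 1000000), against at most 4763 CPM for alpha cell markers. The beta cell list shares Ins1, Ins2, Iapp, Ucn3 and Slc30a8 with the members. In the library with 99830 CPM, Ctrl HFD replicate 3, Ins2, Ins1 and Iapp stood at 59881, 19980 and 18117 CPM. The sum is thus no check of purity apart from the genes under study.

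Upstream sequence is shown for the genes on which the diet and ratio results turn, Ins1, Pcsk1 and Pcsk2, as 250 bases before the start of each gene in RefSeq (GRCm38.p6). RefSeq entries were matched for 6 of the 9 genes. The capitals in Ins1 mark TAAT, the core that homeodomain factors such as Pdx1 can bind, or ATTA on the other strand. In Pcsk1 and Pcsk2 the capitals mark TGACG, the core of the cyclic AMP response element, or CGTCA on the other strand, and in Pcsk1 also the full palindrome TGACGTCA, which holds 2 overlapping matches of the core. The windows are chr19:52264047-52264296 for Ins1, chr13:75089607-75089856 for Pcsk1 and chr2:143545883-143546132 for Pcsk2, all on the plus strand and printed 5′ to 3′.
Ins1: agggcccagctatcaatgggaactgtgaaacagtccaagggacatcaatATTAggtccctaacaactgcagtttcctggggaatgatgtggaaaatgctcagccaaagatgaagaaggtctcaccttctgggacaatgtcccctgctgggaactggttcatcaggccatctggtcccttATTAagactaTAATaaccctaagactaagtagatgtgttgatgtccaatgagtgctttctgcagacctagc
Pcsk1: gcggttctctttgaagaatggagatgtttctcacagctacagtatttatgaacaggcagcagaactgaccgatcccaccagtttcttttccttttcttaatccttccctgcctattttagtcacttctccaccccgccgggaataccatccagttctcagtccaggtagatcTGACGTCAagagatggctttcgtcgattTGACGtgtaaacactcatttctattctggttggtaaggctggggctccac
Pcsk2: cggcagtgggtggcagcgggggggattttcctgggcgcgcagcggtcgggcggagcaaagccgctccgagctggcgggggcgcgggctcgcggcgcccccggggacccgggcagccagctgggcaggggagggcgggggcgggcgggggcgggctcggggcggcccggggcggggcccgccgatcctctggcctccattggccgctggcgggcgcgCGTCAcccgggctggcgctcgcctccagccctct

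The Ins1 window held 3 matches of TAAT, the nearest to the start at positions -71 and -61. Among 32536 windows of the same length, 54.8% held TAAT at least once and 17.2% held it at least 3 times, both strands counted. TGACGTCA stood at position -78 of the Pcsk1 window, with a further TGACG at -50. TGACGTCA occurred in 1.56% of the windows and TGACG in 17.9%, while 0.695% held 3 or more TGACG. The Pcsk2 window held TGACG once, at -34. These matches describe letters and say nothing of binding.

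Per kilobase of exon, Ins2 had the highest level of the 9 genes, a mean of 82297 CPM per kb over the 18 libraries. Ins1 followed at 36753 CPM per kb and Iapp at 27540 CPM per kb. The processing genes stood far lower, Cpe at 1471, Pcsk2 at 441, Slc30a8 at 215, Pam at 79.0 and Pcsk1 at 65.4 CPM per kb, with Ucn3 at 174 CPM per kb. The order within a group can differ from this pooled one: Iapp averaged 28685 and Ins1 27707 CPM per kb in LIRKO HFD, Pam 128 and Ucn3 121 CPM per kb in LIRKO chow, and Pcsk1 83.3 and Pam 70.3 CPM per kb in Ctrl chow. Over all 18 libraries, a spread that includes the differences between groups, the coefficient of variation ran from 18.6% for Cpe to 51.2% for Pcsk1. Within groups that of Pcsk1 was 15.0% in LIRKO HFD, 3.93% in LIRKO chow, 51.3% in Ctrl HFD and 37.5% in Ctrl chow. The lengths are those of all exons of each gene in GENCODE M21. For Ins2 that is 1312 bp, more than its main transcript of 478 bp, so its level per kb is a low estimate.

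**Figure D1:**
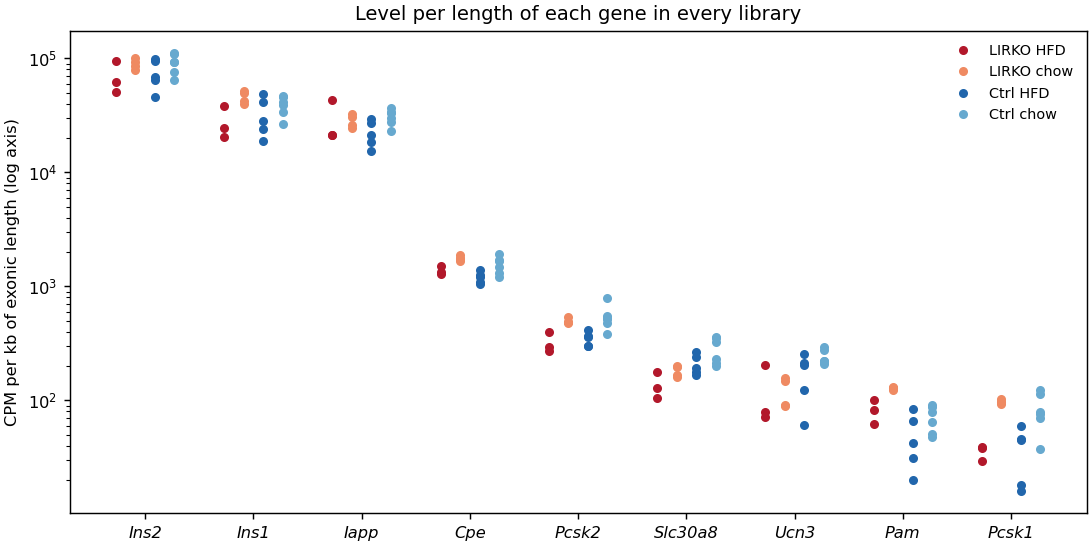
Level per kilobase of exon (CPM per kb, log axis) of the 9 genes in each of the 18 libraries, by group. Insulin and amylin transcripts sit far above the enzymes, the zinc transporter and Ucn3.

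Across diets, genes of prohormone cutting were lower on HFD. Averaged over both genotypes, Pcsk1 fell 2.49-fold (log2 change -1.31, SE 0.26, adjusted p = 0.00526), Pcsk2 fell 1.55-fold (-0.63, SE 0.14, adjusted p = 0.00833) and Cpe fell 1.29-fold (-0.37, SE 0.11, adjusted p = 0.0314) by edgeR's quasi-likelihood test. These are 3 of 9 members, where 21.2% of all 19284 tested genes were called, 12.1% higher and 9.18% lower. All 9 members had a negative log2 change, with a median of -0.42, against a median of 0.04 over all genes tested. With libraries scaled by total counts alone, the median over all genes was 0.23, and 5008 genes were called higher and 383 lower, against 2324 higher and 1771 lower with TMM scaling. Under that scaling Pcsk1 (-1.10, adjusted p = 0.00845, edgeR) and Pcsk2 (-0.43, adjusted p = 0.0174) still passed, Cpe did not (-0.16, adjusted p = 0.188), and all 9 members were still negative. The hormone genes did not pass by edgeR, but this depended on the setting. Ins1 passed with DESeq2 (-0.48, adjusted p = 0.0486) and, by edgeR, without Ctrl HFD replicates 1 and 2 (-0.69, adjusted p = 0.0231). Limma's voom with quality weights called all 9 members lower, where it called 3371 genes higher and 3342 lower in all. No test compared the hormone genes with the processing genes. This averaged comparison was added after the values were seen. In bulk libraries, fewer cells of a type and less RNA per cell cannot be told apart.

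**Figure D2:**
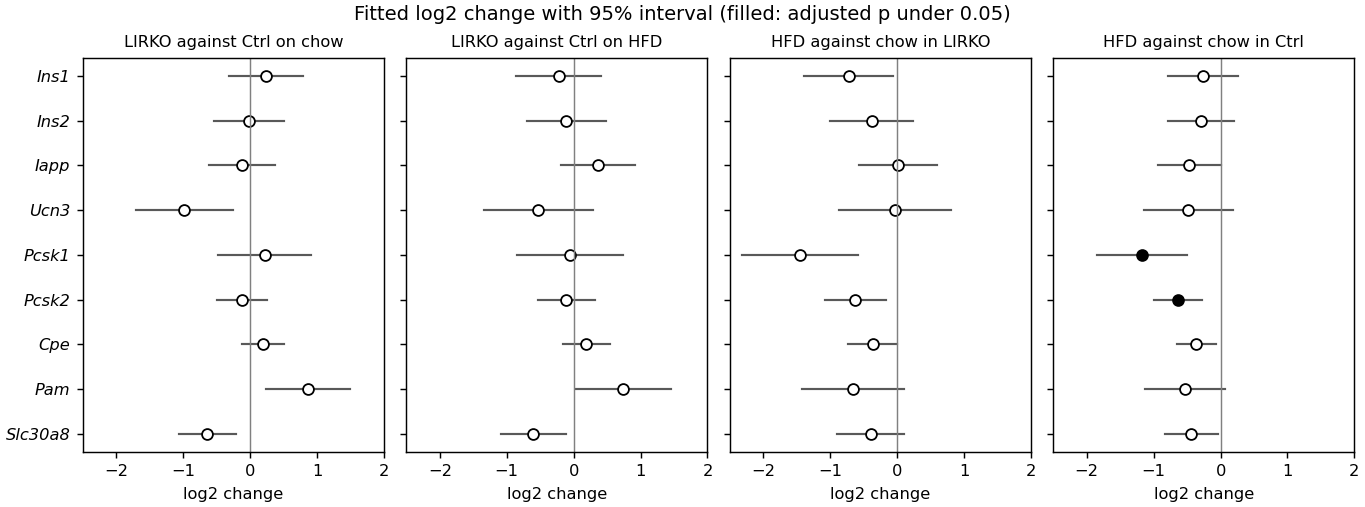
Log2 change of each gene with its 95% confidence interval in the comparisons of genotype and of diet, each drawn with the first-named group over the second, and filled where it passed. Pcsk1 has the lowest values in both diet comparisons, and Pam and Slc30a8 lie on opposite sides of 0 in both genotype comparisons.

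The insulin genes come first. Ins1 (chr19:52264297-52265476, plus strand, GRCm38) is the rodent copy that arose by retroposition, and Ins2 (chr7:142678656-142743381, minus strand) is the ancestral gene. Ins1 stood at 40957, 25769 and 21548 CPM in LIRKO HFD, at 52380, 55400, 44774 and 42143 CPM in LIRKO chow, at 51673, 44367, 19980, 25713 and 29930 CPM in Ctrl HFD, and between 27936 and 49694 CPM with a median of 42664 CPM in Ctrl chow. All LIRKO HFD libraries lay below all LIRKO chow libraries, while Ctrl HFD spanned the whole range of Ctrl chow, its replicates 1 and 2 being the high ones. The log2 change of Ins1 with HFD was -0.73 in LIRKO (SE 0.32, adjusted p = 0.262) and -0.27 in Ctrl by edgeR, and neither passed.

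Ins2 stood at 123891, 80597 and 66265 CPM in LIRKO HFD, at 122641, 132008, 112308 and 103312 CPM in LIRKO chow, at 129472, 123795, 59881, 83907 and 89883 CPM in Ctrl HFD, and between 85296 and 145739 CPM with a median of 121846 CPM in Ctrl chow. Its groups overlapped in every comparison, and the order of libraries within LIRKO HFD and within Ctrl HFD was that of Ins1. Averaged over genotypes its log2 change with HFD was -0.34 (adjusted p = 0.185, edgeR). Genotype moved neither insulin gene past the test: on chow the log2 difference was 0.24 for Ins1 and -0.02 for Ins2, and on HFD it was -0.22 for Ins1 and -0.11 for Ins2.

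The ratio of Ins1 to Ins2 counts is free of the scaling between libraries, and its mean was highest in LIRKO chow. It was 0.331, 0.320 and 0.325 in LIRKO HFD, 0.427, 0.420, 0.399 and 0.408 in LIRKO chow, 0.399, 0.358, 0.334, 0.306 and 0.333 in Ctrl HFD, and between 0.328 and 0.366 with a median of 0.342 in Ctrl chow. Every LIRKO chow library lay above every LIRKO HFD and every Ctrl chow library. LIRKO chow overlapped Ctrl HFD, whose replicate 1, at 0.3991, lay just above LIRKO chow replicate 3, at 0.3987. These 2 groups were not tested against each other. The group means were 0.325 ± 0.00543 (SD, n = 3) in LIRKO HFD, 0.413 ± 0.0126 (SD, n = 4) in LIRKO chow, 0.346 ± 0.0349 (SD, n = 5) in Ctrl HFD and 0.346 ± 0.0147 (SD, n = 6) in Ctrl chow.

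In LIRKO against Ctrl on chow the log2 ratio was higher by 0.26, with a two-sided exact permutation p = 0.00476, the smallest that 210 splits can give, and p = 0.0571 after adjustment over the 12 tests of 3 ratios in 4 comparisons. In LIRKO the difference of HFD from chow was -0.35 (exact permutation p = 0.0286, the smallest of 35 splits, adjusted p = 0.0857). On HFD the genotypes differed by -0.08 (exact permutation p = 0.411), and in Ctrl the diets differed by -0.01 (exact permutation p = 0.924). The genotype difference of the log2 ratio was lower by 0.34 on HFD than on chow (a difference of differences of -0.34). An exact permutation of genotype within each diet over 11760 splits gave p = 0.0034, adjusted over the 3 ratios to 0.0102. This test was chosen after the ratios were seen, and its null also holds that genotype makes no difference in either diet. Without Ctrl HFD replicates 1 and 2 the value was -0.25 (adjusted p = 0.0214, exact permutation), and with each alike pair of LIRKO chow libraries summed to 1 it was -0.34 (adjusted p = 0.0210, exact permutation). With those pairs summed, the adjusted p of the ratio was 0.30 both for genotype on chow and for diet in LIRKO, and for diet in LIRKO it was 0.30 for Pcsk1 to Pcsk2 and 0.375 for Iapp to insulin (exact permutation).

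The coding sequences of the first listed GENCODE transcripts of Ins1 and Ins2 hold 327 and 333 bases, of which 302 aligned bases are the same, 25 differ and 6 fall in gaps, an identity of 92.4%. The longest identical coding run was 56 bases. Of 429 windows of 50 bases along the Ins2 transcript, 7 (1.63%) also occur in Ins1, and of 404 windows of 75 bases none do. No source used here gives the read length or the treatment of reads that match both genes, so the split of shared reads between these genes is uncertain.

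**Figure D3:**
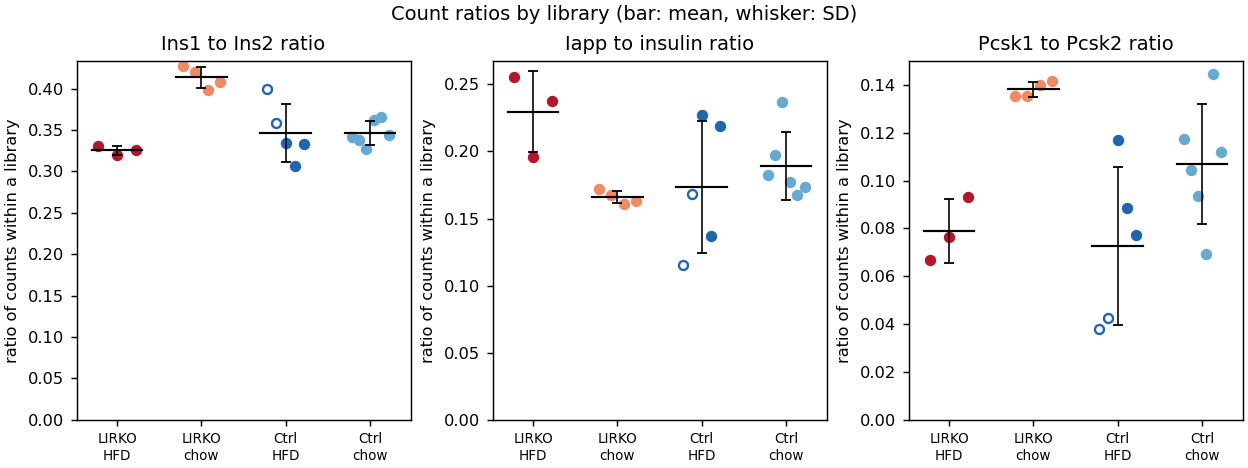
Ratio of Ins1 to Ins2, of Iapp to the sum of both insulin genes, and of Pcsk1 to Pcsk2 counts in each library (points), with group means (bars) and SD (whiskers), and Ctrl HFD replicates 1 and 2 as open circles. The 4 LIRKO chow libraries lie between 0.399 and 0.427 for Ins1 to Ins2, above all Ctrl chow and LIRKO HFD libraries.

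Among the co-secreted peptides, Iapp (chr6:142298423-142303961, plus strand) stood at 42075, 20852 and 20891 CPM in LIRKO HFD, at 30052, 31467, 25311 and 23746 CPM in LIRKO chow, at 20869, 28363, 18117, 14996 and 26240 CPM in Ctrl HFD, and between 22536 and 35630 CPM with a median of 30821 CPM in Ctrl chow. The groups overlapped in all 4 comparisons, and the highest library of all was LIRKO HFD replicate 1. Its log2 change with HFD was 0.02 in LIRKO and -0.46 in Ctrl (SE 0.22, adjusted p = 0.146, edgeR). Set against insulin, Iapp gave ratios of 0.255, 0.196 and 0.238 in LIRKO HFD and of 0.172, 0.168, 0.161 and 0.163 in LIRKO chow, groups that did not overlap (log2 difference 0.46, exact permutation p = 0.0286, adjusted p = 0.0857). In Ctrl HFD the ratios were 0.115, 0.169, 0.227, 0.137 and 0.219, of which replicates 1 and 4 lay below the Ctrl chow range of 0.167 to 0.237. The genotype difference of this ratio was higher by 0.63 on HFD than on chow, with an adjusted p = 0.0585 from the same exact permutation.

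Ucn3 (chr13:3940688-3945349, minus strand), also a marker of mature beta cells, stood at 303, 116 and 105 CPM in LIRKO HFD, at 217, 231, 135 and 133 CPM in LIRKO chow, at 301, 377, 183, 90.7 and 313 CPM in Ctrl HFD, and between 310 and 433 CPM in Ctrl chow. On chow all LIRKO libraries lay below all Ctrl libraries, and on HFD the genotypes overlapped. The means were 179 ± 52.4 CPM (SD, n = 4) in LIRKO chow and 353 ± 51.96 CPM (SD, n = 6) in Ctrl chow, a log2 difference of -0.98 (SE 0.35, adjusted p = 0.119, edgeR). On HFD the log2 difference was -0.53 (adjusted p = 0.785), and averaged over diets it was -0.76 (SE 0.26, adjusted p = 0.102, edgeR), and none of these passed. In other settings the chow difference did pass, at -0.96 (adjusted p = 0.00748) with edgeR on only the groups compared and at -1.04 (adjusted p = 0.0131) with limma's voom, which also called the difference averaged over diets (-0.92, adjusted p = 0.00489). The alike pairs differ from each other here, 217 and 231 CPM in LIRKO chow replicates 1 and 2 against 135 and 133 CPM in replicates 3 and 4.

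Pcsk1 (chr13:75089826-75134861, plus strand) encodes PC1/3, which opens proinsulin at the junction of the B chain and C peptide. It stood at 212, 164 and 218 CPM in LIRKO HFD, at 520, 571, 541 and 537 CPM in LIRKO chow, at 89.8, 102, 332, 258 and 250 CPM in Ctrl HFD, and between 211 and 696 CPM with a median of 433 CPM in Ctrl chow. All LIRKO HFD libraries lay below all LIRKO chow libraries, by more than their spread, whereas in Ctrl the groups overlapped through Ctrl HFD replicates 3, 4 and 5 and the lowest Ctrl chow library. The means were 198 ± 29.6 CPM (SD, n = 3) in LIRKO HFD and 542 ± 21.3 CPM (SD, n = 4) in LIRKO chow, a log2 change of -1.45 (SE 0.41, adjusted p = 0.0733, edgeR). The means were 206 ± 106 CPM (SD, n = 5) in Ctrl HFD and 467 ± 175 CPM (SD, n = 6) in Ctrl chow, a log2 change of -1.18 (SE 0.32, adjusted p = 0.0384, edgeR).

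Pcsk2 (chr2:143546156-143816285, plus strand) encodes PC2, which acts mainly at the junction of the C peptide and A chain and also cuts proglucagon in alpha cells. It stood at 3172, 2144 and 2340 CPM in LIRKO HFD, at 3840, 4221, 3859 and 3797 CPM in LIRKO chow, at 2365, 2387, 2839, 2913 and 3246 CPM in Ctrl HFD, and between 3047 and 6202 CPM with a median of 4137 CPM in Ctrl chow. The LIRKO groups did not overlap, and the Ctrl groups did only through Ctrl HFD replicate 5 and the lowest Ctrl chow library. The log2 change with HFD was -0.62 in LIRKO (SE 0.22, adjusted p = 0.150, edgeR) and -0.64 in Ctrl (SE 0.17, adjusted p = 0.0377, edgeR). Summed alpha cell markers, whose most abundant gene was Gcg, ran from 1069 to 4174 CPM in LIRKO HFD, from 1043 to 2650 CPM in LIRKO chow, from 841 to 4763 CPM in Ctrl HFD and from 1208 to 2343 CPM in Ctrl chow. Antisense genes Pcsk2os1 and Pcsk2os2 share 260 and 99 exonic bases with Pcsk2, and no source used here gives the strand setting of the counting, so their reads cannot be told apart in those stretches.

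In Ctrl mice, Pcsk1 and Pcsk2 were thus 2 of 9 members called lower, where 9.93% of all genes were called in either direction and 4.35% lower. This pair of calls rested on Ctrl HFD replicates 1 and 2: without them the log2 change was -0.69 for Pcsk1 (adjusted p = 0.188, edgeR) and -0.47 for Pcsk2 (adjusted p = 0.204, edgeR), and the mean of Pcsk1 in Ctrl HFD was 280 ± 44.9 CPM (SD, n = 3). Each call held in 3 of 10 other settings. Left out singly, Ctrl chow replicates 1, 2 and 6 and Ctrl HFD replicates 1 and 2 each ended both calls, with adjusted p from 0.0644 to 0.108, and Ctrl chow replicate 5, LIRKO chow replicate 3 and LIRKO HFD replicate 3 ended that of Pcsk1, with adjusted p from 0.0503 to 0.0553 (edgeR). In LIRKO no member passed by edgeR, where 2.03% of all genes did. At an unadjusted p under 0.05 there were 3 members, against 16.5% of all genes. DESeq2 called 2 (Pcsk1 and Pcsk2) and limma's voom with quality weights 7, where they called 1089 and 6104 genes in all. By edgeR on only the groups compared, Pcsk1, Pcsk2 and Pam passed (adjusted p = 0.00119, 0.0333 and 0.0291), and without Ctrl HFD replicates 1 and 2 Pcsk1 did (adjusted p = 0.00863). In the same comparison 5 of 9 members (Ins1, Pcsk1, Pcsk2, Cpe and Pam) had all HFD libraries below all chow libraries, against 18.3% of all genes and 34.4% apart in either direction. In Ctrl no member was without overlap between diets, against 3.56% of all genes.

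Averaged over genotypes, Pcsk1 passed in all 9 other settings, with log2 changes from -1.33 to -1.07 and adjusted p up to 0.0324 (edgeR, DESeq2 or limma), and with each of the 18 libraries left out in turn, with adjusted p from 0.00243 to 0.0248. Pcsk2 passed with each library left out and in 8 of 9 other settings. It was lost, at -0.54 (adjusted p = 0.0844, edgeR), where the alike LIRKO chow pairs were summed and Ctrl HFD replicates 1 and 2 were left out together. Tested singly, no member had a diet change found to differ between genotypes. The lowest adjusted p of the interaction was 0.981 (edgeR), and no member had an unadjusted p under 0.05, against 5.52% of all genes. DESeq2 and limma called none either, and 0.00519% of all genes were called. The ratio of Ins1 to Ins2 did pass in this contrast (-0.34, adjusted p = 0.0102, exact permutation). The null of that test also holds that genotype makes no difference in either diet.

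**Figure D4:**
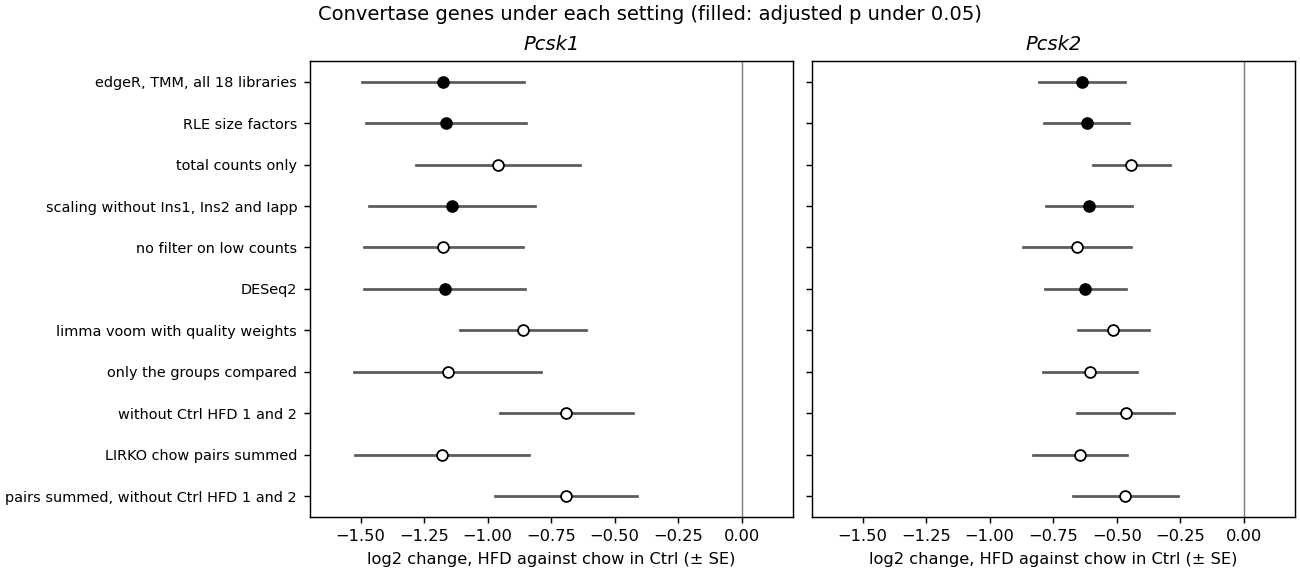
Log2 change of Pcsk1 and Pcsk2 with HFD in Ctrl mice, with its SE, under each setting of the processing. All values are negative, and without Ctrl HFD replicates 1 and 2 they are -0.69 for Pcsk1 and -0.47 for Pcsk2.

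The ratio of Pcsk1 to Pcsk2 was 0.0669, 0.0766 and 0.0933 in LIRKO HFD and between 0.135 and 0.141 in LIRKO chow, groups that did not overlap (log2 difference -0.82, exact permutation p = 0.0286, adjusted p = 0.0857). It was 0.0380, 0.0427, 0.117, 0.0886 and 0.0771 in Ctrl HFD and between 0.0693 and 0.145 with a median of 0.108 in Ctrl chow, where the groups overlapped (log2 difference -0.65, exact permutation p = 0.0823, adjusted p = 0.141). The lowest ratios of all were those of Ctrl HFD replicates 1 and 2. The genotype difference of this ratio differed between diets by -0.17 (exact permutation p = 0.729), and by -0.65 without those libraries (adjusted p = 0.0464, exact permutation).

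Cpe (chr8:64592542-64693054, minus strand) stood at 3919, 3341 and 3473 CPM in LIRKO HFD, at 4575, 4871, 4636 and 4372 CPM in LIRKO chow, at 2750, 3289, 2863, 3620 and 3158 CPM in Ctrl HFD, and between 3140 and 5035 CPM with a median of 4116 CPM in Ctrl chow. HFD libraries lay below chow libraries without overlap in LIRKO, and with overlap in Ctrl. The log2 change with HFD was -0.37 in both LIRKO (adjusted p = 0.305, edgeR) and Ctrl (SE 0.14, adjusted p = 0.0811, edgeR). The call averaged over genotypes was lost in 5 of 9 other settings, with adjusted p up to 0.190, and with LIRKO HFD replicate 2 or 3 or LIRKO chow replicate 1 or 2 left out (adjusted p from 0.0563 to 0.0903, edgeR). Without Ctrl HFD replicates 1 and 2 the adjusted p was 0.0747.

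**Figure D5:**
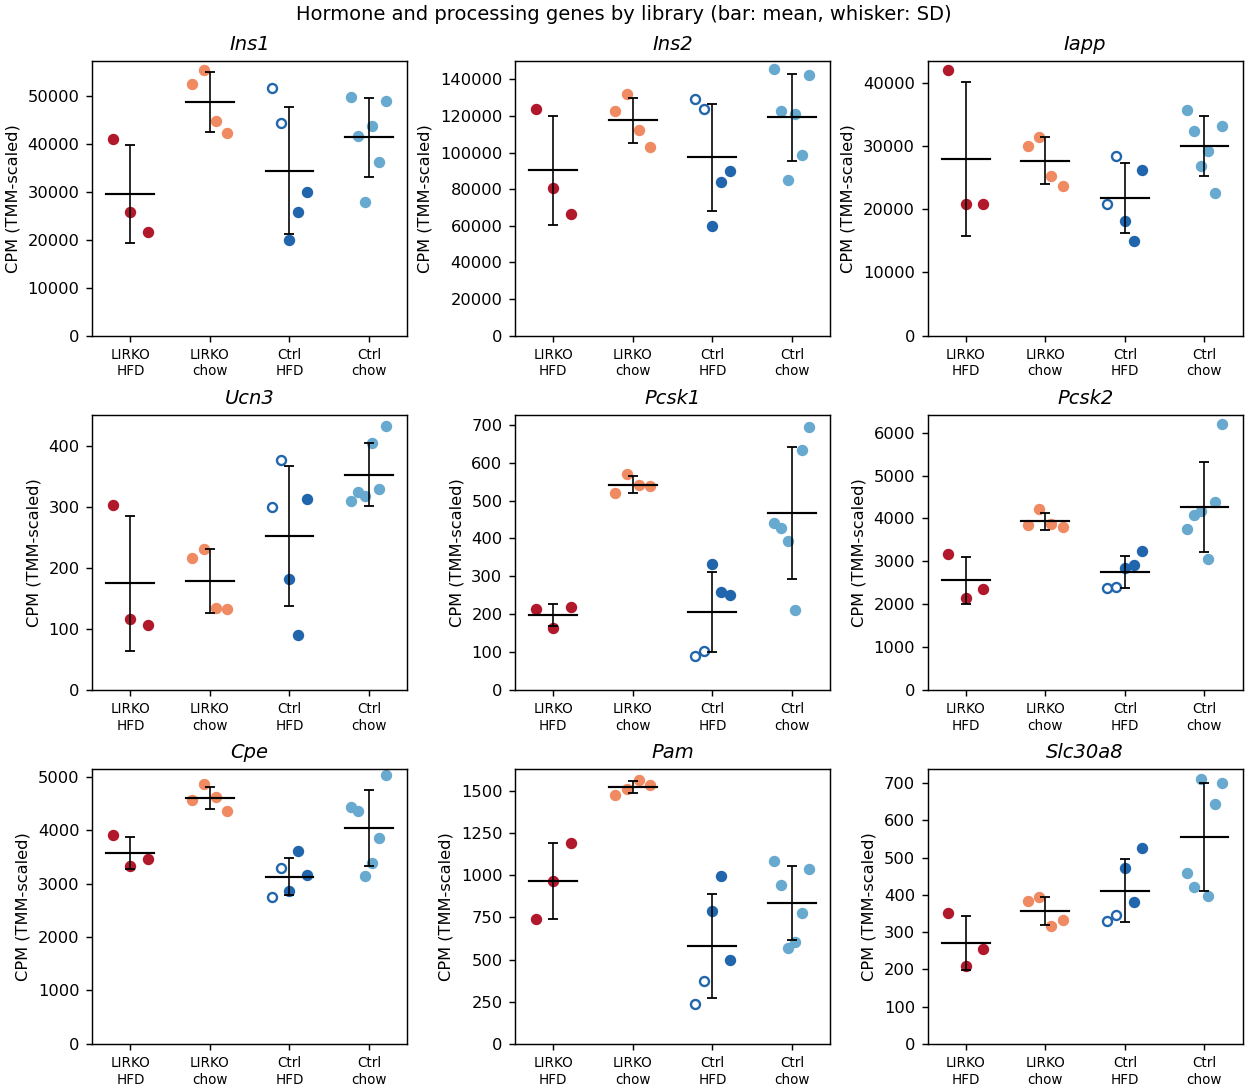
CPM of each of the 9 genes in each library (points), by group, with means (bars) and SD (whiskers), Ctrl HFD replicates 1 and 2 being open circles. Pcsk1 lies between 164 and 218 CPM in LIRKO HFD and between 520 and 571 CPM in LIRKO chow, and Pam lies highest in LIRKO chow.

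Between genotypes, the members that passed were those of amidation and zinc loading. Averaged over diets, Pam, the amidating enzyme, rose 1.75-fold in LIRKO against Ctrl (log2 0.80, SE 0.22, adjusted p = 0.0412, edgeR), and Slc30a8, the granule zinc transporter, fell 1.54-fold (log2 -0.62, SE 0.15, adjusted p = 0.0209, edgeR). These 2 of 9 members, 1 in each direction, stand beside 5.68% of all genes called, 3.16% higher and 2.52% lower. This comparison too was added after the values were seen. Neither gene passed within 1 diet, and the direction of each was the same on HFD and on chow.

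Pam (chr1:97795114-98095646, minus strand) stood at 738, 969 and 1192 CPM in LIRKO HFD, at 1479, 1515, 1564 and 1540 CPM in LIRKO chow, at 239, 374, 786, 995 and 498 CPM in Ctrl HFD, and between 568 and 1087 CPM with a median of 858 CPM in Ctrl chow. Every LIRKO chow library lay above every library of the other groups, and Ctrl HFD replicates 1 and 2 were the lowest of all. LIRKO exceeded Ctrl by a log2 difference of 0.74 on HFD (SE 0.34, adjusted p = 0.607, edgeR) and of 0.87 on chow (SE 0.30, adjusted p = 0.108, edgeR). The processed transcript B230216N24Rik shares 188 exonic bases with Pam on the same strand, so reads in that stretch are uncertain.

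Slc30a8 (chr15:52295553-52335798, plus strand) stood at 350, 208 and 254 CPM in LIRKO HFD, at 384, 393, 317 and 331 CPM in LIRKO chow, at 330, 346, 473, 382 and 525 CPM in Ctrl HFD, and between 398 and 712 CPM with a median of 551 CPM in Ctrl chow. On chow the genotypes did not overlap, though the highest LIRKO library, at 393 CPM, nearly reached the lowest Ctrl library, at 398 CPM. On HFD they overlapped through LIRKO HFD replicate 1. The log2 difference was -0.60 on HFD (SE 0.23, adjusted p = 0.452, edgeR) and -0.64 on chow (SE 0.20, adjusted p = 0.0804, edgeR).

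On chow, 3 of 9 members had genotypes that did not overlap (Pam higher, Ucn3 and Slc30a8 lower in LIRKO), against 11.7% of all genes, and none passed, against 5.15% of all genes. On HFD none was without overlap, against 5.01%, and none passed, against 0.508%. At an unadjusted p under 0.05, edgeR gave 2 members on HFD and 3 on chow, against 7.81% and 18.8% of all genes. DESeq2 called none on HFD and 2 on chow (Pam and Slc30a8), where it called 311 and 1638 genes in all. Limma's voom with quality weights called 1 on HFD and 3 on chow, where it called 924 and 3518 genes in all. The averaged call of Pam was lost in 3 of 9 other settings and with 12 of 18 libraries left out in turn, with adjusted p up to 0.155, the value without LIRKO HFD replicate 3 (edgeR). That of Slc30a8 was lost in 3 of 9 settings and without LIRKO HFD replicate 2 or 3 or LIRKO chow replicate 3 or 4, with adjusted p from 0.0536 to 0.0951 (edgeR). With the alike LIRKO chow pairs summed, the adjusted p was 0.152 for Pam and 0.112 for Slc30a8 (edgeR).

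Genes of the steps before the cut, folding and entry into the secretory pathway, fell with HFD as well, in numbers that depended on the scaling. Of 16 genes of proinsulin folding, averaged over genotypes, 15 fell and none rose, with a median log2 change of -0.53 against 0.04 over all genes, where 9.18% of genes were called lower. Sdf2l1, a chaperone cofactor, fell by 0.81 on the log2 scale (adjusted p = 0.00209, edgeR), Pdia6, a disulfide isomerase, by 0.77 (adjusted p = 0.00246), and Ero1lb, the oxidase that recharges such isomerases, by 0.76 (adjusted p = 0.00461). Hspa5, the main chaperone of the endoplasmic reticulum, fell by 0.58 (adjusted p = 0.0198, edgeR) and Pdia4 by 0.51 (adjusted p = 0.0216). Without Ctrl HFD replicates 1 and 2, 11 of the 16 passed, with the LIRKO chow pairs summed 4 did, and with scaling by total counts alone 7 did, all lower.

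Within Ctrl, 9 of the 16 folding genes fell, where 4.35% of all genes were called lower. Within LIRKO 1 did, where only 2.03% of all genes were called in either direction. This was Sdf2l1, with 64.5 ± 4.64 CPM (SD, n = 3) in LIRKO HFD and 127 ± 9.11 CPM (SD, n = 4) in LIRKO chow. The Ctrl calls of this list were 0 without Ctrl HFD replicates 1 and 2. In LIRKO against Ctrl on chow, 3 rose, Prdx4 by 0.77, Hsp90b1 by 0.76 and Sdf2l1 by 0.62 (adjusted p = 0.0168, 0.0171 and 0.0411, edgeR), where 2.95% of all genes were called higher. Averaged over diets 6 rose, led by Prdx4, a peroxiredoxin of the endoplasmic reticulum, at 0.81 (adjusted p = 0.00117, edgeR), where 3.16% of genes did. With the LIRKO chow pairs summed, these counts were 0 on chow and 1 averaged over diets.

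Of 19 genes of entry into the endoplasmic reticulum and signal peptide removal, 9 fell with HFD averaged over genotypes and none rose, with Srpr, a subunit of the signal recognition particle receptor, at -0.65 (adjusted p = 0.00822, edgeR) and Ssr1 at -0.44 (adjusted p = 0.0139). Of 19 genes of granule acidification, 13 fell and 1 rose. In that comparison 9.18% of all genes were called lower and 12.1% higher. Atp6ap1, an accessory subunit of the proton pump, fell by 0.45 (adjusted p = 0.0115, edgeR), and Tcirg1, a pump subunit best known from osteoclasts and immune cells, rose by 0.73 (adjusted p = 0.00945). Without Ctrl HFD replicates 1 and 2 the counts were 6 lower for entry, and 7 lower and 1 higher for acidification. With the LIRKO chow pairs summed, 1 entry gene was lower, and of the acidification genes 1 was higher and none lower. With scaling by total counts alone, 1 entry gene was lower, and 2 acidification genes were lower and 1 higher.

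Of the direct partners of the convertases, Pcsk1n (proSAAS, a peptide inhibitor of PC1/3) rose with HFD averaged over genotypes by 0.62 (SE 0.19, adjusted p = 0.0308, edgeR), a call left neither without Ctrl HFD replicates 1 and 2 nor with the LIRKO chow pairs summed. Scg5, the 7B2 chaperone of PC2, had a log2 change of -0.24 (adjusted p = 0.125, edgeR). Among other convertases and carboxypeptidases, Furin, the ubiquitous convertase of the secretory pathway, had a log2 change of -0.02 (adjusted p = 0.894, edgeR) and Cpd, a carboxypeptidase related to Cpe, of -0.35 (adjusted p = 0.237). In LIRKO against Ctrl averaged over diets, Pcsk6 and Cpm fell, both by 0.83 (adjusted p = 0.0271 and 0.00273, edgeR). These are 2 of 11 tested genes of that list, where 2.52% of all genes were called lower. With the LIRKO chow pairs summed the adjusted p was 0.131 for Pcsk6 and 0.0244 for Cpm.

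Qpct, which forms pyroglutamate at peptide ends, fell with HFD by 1.22 (SE 0.26, adjusted p = 0.00711, edgeR). In the same list of 8 genes, which also holds copper transporters that supply the cofactor of Pam, Slc31a1 fell by 0.40 and Atp7a by 1.08 (adjusted p = 0.0117 and 0.0481), and none rose. That list had 2 genes lower without Ctrl HFD replicates 1 and 2, and 1 lower with the LIRKO chow pairs summed. Of 16 other zinc transporters tested, 2 rose and 4 fell with HFD averaged over genotypes (none higher and 2 lower without Ctrl HFD replicates 1 and 2, none higher and 1 lower with the pairs summed). Of all genes, 12.1% were called higher and 9.18% lower in that comparison. On chow 1 rose in LIRKO against Ctrl, Slc39a10, an importer at the cell surface. It stood at 33.7 ± 0.59 CPM (SD, n = 4) in LIRKO chow and 13.0 ± 4.21 CPM (SD, n = 6) in Ctrl chow (log2 1.37, SE 0.22, adjusted p = 0.00135, edgeR, and 0.0328 with the pairs summed), and was lower in LIRKO HFD, at 13.2 ± 1.76 CPM (SD, n = 3), than in LIRKO chow (-1.35, adjusted p = 0.0205, edgeR). Slc30a5 and Slc30a7, the zinc transporters of the early secretory pathway, had log2 changes of -0.25 and -0.41 with HFD averaged over genotypes (adjusted p = 0.0722 and 0.0573, edgeR).

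Of 10 transcription factors of the insulin genes, averaged over genotypes, Mafa fell and Isl1 rose with HFD (-2.05 and 0.59, adjusted p = 0.00261 and 0.0151, edgeR). Of all genes, 9.18% were called lower and 12.1% higher there, so these counts do not set the list apart. Averaged over diets, Pdx1, Mafa and Foxa2 fell in LIRKO against Ctrl (-0.65, -1.34 and -0.33, adjusted p = 0.00459, 0.0294 and 0.0357, edgeR), where 2.52% of all genes did. Mafa, which binds the insulin promoter in mature beta cells, fell with HFD by 2.24 in LIRKO, with 6.09 ± 2.31 CPM (SD, n = 3) in LIRKO HFD and 28.7 ± 15.5 CPM (SD, n = 4) in LIRKO chow (adjusted p = 0.0483, edgeR). It fell by 1.87 in Ctrl, with 17.4 ± 10.6 CPM (SD, n = 5) in Ctrl HFD and 64.0 ± 28.0 CPM (SD, n = 6) in Ctrl chow (adjusted p = 0.0312, edgeR). Pdx1 was 73.7 ± 12.9 CPM (SD, n = 4) in LIRKO chow and 138 ± 25.4 CPM (SD, n = 6) in Ctrl chow (log2 -0.90, SE 0.17, adjusted p = 0.00452, edgeR). Averaged over genotypes its log2 change with HFD was -0.30 (adjusted p = 0.0871, edgeR). The Ctrl-only diet calls of this list were 0 without Ctrl HFD replicates 1 and 2. With the LIRKO chow pairs summed, no diet call within LIRKO was left in the folding, zinc transporter or transcription factor lists, Sdf2l1, Slc39a10 and Mafa included. In the same setting the adjusted p between genotypes was 0.092 for Pdx1 on chow, and averaged over diets 0.0306 for Pdx1, 0.108 for Mafa and 0.170 for Foxa2 (edgeR). Among 8 proteins that bind insulin mRNA, Igf2bp2 fell by 1.42, Pabpc1 by 0.32 and Hnrnpk by 0.38, while Elavl4 rose by 0.51 (averaged over genotypes, adjusted p = 0.00945, 0.0171, 0.0411 and 0.0188, edgeR). Of 7 receptor genes and partners for amylin and urocortin, Ramp1 rose by 1.19 and Ramp3 by 1.41, and Crhr1 fell by 1.70 and Ramp2 by 0.49 (adjusted p = 0.0045, 0.0198, 0.00715 and 0.0466, edgeR). Both these small lists stand beside 12.1% of all genes called higher and 9.18% lower. The averaged diet calls of these last 2 lists without Ctrl HFD replicates 1 and 2 came to 1 higher and 2 lower, and to 2 higher and 2 lower. With the LIRKO chow pairs summed they came to 0 higher and 1 lower, and to 1 higher and 1 lower. On HFD no gene of these 10 lists passed between genotypes by edgeR with all 18 libraries. Without Ctrl HFD replicates 1 and 2, Cpm (-1.11, adjusted p = 0.00286, edgeR) and Mafa (-2.02, adjusted p = 0.0460, edgeR) were lower in LIRKO on HFD.

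Markers of other cell types moved with diet. The summed level of 10 endothelial markers ran from 259 to 326 CPM in LIRKO HFD, from 18.5 to 187 CPM in LIRKO chow, from 164 to 320 CPM in Ctrl HFD and from 38.7 to 209 CPM in Ctrl chow, and 9 of the 10, of which Kdr was the most abundant, rose with HFD averaged over genotypes. The summed level of 10 macrophage markers ran from 308 to 377 CPM in LIRKO HFD, from 116 to 234 CPM in LIRKO chow, from 185 to 462 CPM in Ctrl HFD and from 155 to 279 CPM in Ctrl chow, and 6 of the 10, led in level by Cd74, rose. Of all genes, 12.1% were called higher and 9.18% lower with HFD averaged over genotypes. Without Ctrl HFD replicates 1 and 2 the counts were 6 endothelial and 8 macrophage markers, and with the LIRKO chow pairs summed 1 and 3. Fewer genes were called in all in both of these settings. The alike pairs of LIRKO chow differed from each other here. The endothelial sum was 18.5 and 22.5 CPM in replicates 1 and 2, and 187 and 159 CPM in replicates 3 and 4. Gcg stood at 116 and 104 CPM in replicates 1 and 2, and at 1477 and 1670 CPM in replicates 3 and 4. The summed level of stellate and fibroblast markers was at most 75.2 CPM in any library, and 3 of them rose. Of the alpha cell list 2 rose and 1 fell, and of the delta, PP, acinar and duct cell lists none passed by edgeR in that comparison. Between genotypes, averaged over diets, the alpha cell markers Gc and Ttr (1.36 and 0.51, adjusted p = 5.22e-07 and 0.0192, edgeR) and the duct marker Spp1 (1.53, adjusted p = 0.00784) were higher in LIRKO. Of all genes, 3.16% were called higher there, and no other gene of the 10 alpha or 7 tested duct markers passed. The median log2 difference was -0.04 over the alpha list and 0.09 over the duct list, against -0.03 over all genes. On chow the alpha list had a median of -0.18. Gc, Ttr and Spp1 were also higher on chow, where Pyy of the PP list and Lyz2 of the macrophage list were lower, and on HFD Gc was higher. Their part in the genotype results for Pam, Slc30a8 and the folding genes was not tested. The sums for other cell types are small beside the 99830 CPM or more of beta cell markers. That beta cell sum holds the insulin genes and Iapp, so the contrast does not give shares of cells. Averaged over genotypes, the median log2 change with HFD was 1.72 for the endothelial and 1.12 for the macrophage list, against 0.04 over all genes. The part of other cell types in the diet results was not tested. Hhex of the delta cell list and Amy2a5 of the acinar list were at 0 in every library.

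Over the 18 libraries, the profile of Ins1 was closest to that of Ins2, with a root mean square distance of 0.142 in centred log2 CPM among 11221 genes, followed by Slc35b1 at 0.243. Ins2 was closest to Ins1 and then to Srp9 at 0.177. Iapp was closest to Srp14 (0.145) and Immp1l (0.146), Pcsk2 to Atp6ap1 (0.138) and Atp2a3 (0.147), and Cpe to Rpn2 (0.0863) and Hax1 (0.0889). Pcsk1 was closest to Eaf1 (0.258) and Hsd17b7 (0.268), Pam to Sorl1 (0.227) and Ocln (0.236), Slc30a8 to Slc35b4 (0.137) and Slc16a9 (0.139), and Ucn3 to Castor2 (0.263) and Nme4 (0.273). Between members, Pcsk2 and Cpe stood at 0.268, Pcsk1 and Pcsk2 at 0.554, and Ucn3 and Pam farthest apart at 1.236. These distances describe likeness over libraries that share groups and depth, with no test.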

How the data were processed

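Sorted beta cells were profiled by RNA-seq in 18 libraries, grouped by the genotype and diet in the labels. The authors deposited counts, the unnormalised number of reads per Ensembl gene. Reads were processed with STAR, featureCounts and GRCm38, per the submitters' processing notes. Versions, annotation release, strand setting and read length: not given in the sources used here. Of 53090 gene IDs, 52489 matched GENCODE M21, and the other 601 held at most 0.0176% of any library.

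Counts were tested with edgeR 4.0.16 (R 4.3.3) by the quasi-likelihood test, with TMM scaling and filterByExpr, which left 19284 genes. All 18 libraries entered 1 fit with a term per group, the Benjamini-Hochberg adjustment ran over all genes tested in a comparison, and calls were made at an adjusted p under 0.05. The comparisons share libraries: both diet comparisons and both genotype comparisons are built from the same 4 groups. CPM are TMM-scaled, and fold changes are the fitted ones. Ratios were tested by two-sided exact permutation of libraries. The common dispersion had a square root of 0.314, and Pcsk1 had at least 1808 counts in every library. The tests were checked on simulated data. DESeq2 1.42.0 and limma 3.58.1 (voom) served as alternatives.

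All 9 members are named, as are up to 4 called genes of lowest p per list and comparison, a set of preset pathway genes, the top marker of each cell type and the 2 closest profiles per member; 1 pathway gene is not reported here. Members and lists were chosen with earlier results of these data known. The comparisons averaged over genotypes or diets, the test of the ratio between diets, and the setting that sums pairs and leaves out Ctrl HFD replicates 1 and 2 were added after seeing the data. Promoter windows are those of RefSeq.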

Additional observations from a re-analysis of the deposited data

Results flagged for a closer look

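Of 36 groups of 4 to 6 libraries examined, 1 held a library far from the rest, where chance alone gives about 1 in 20. Pcsk2 in LIRKO chow replicate 2 stood at 4221 CPM, and the nearest other library of that group at 3859 CPM. The gap took 0.855 of the group's range, above Dixon's limit for 4 libraries. The other 3 libraries of the group lay very close together, so the step is small beside the diet difference.

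For the log2 ratio of Ins1 to Ins2, the genotype difference on HFD less that on chow was -0.34, and its exact permutation test passed, as given in the report. That test was chosen after the ratios were seen. Its null also holds that genotype makes no difference in either diet, so passing it does not by itself show that the genotype difference depends on diet. Leaving out each of the 18 libraries gave -0.38 to -0.29, with adjusted p from 0.000408 to 0.0340 (exact permutation).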

How the results depend on the processing

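No paired analysis was possible because the labels give the libraries no shared numbers. Among 603 values of a member in a comparison under a setting other than leaving out 1 library, 514 kept direction and side of the threshold, 26 lost and 34 gained a call, and 29 changed direction, the last all in members that did not pass. Causes were not tested, except that dropping or summing libraries leaves fewer to test. Genes called were 98 for genotype on HFD and 993 on chow, 392 for diet in LIRKO and 1914 in Ctrl, 1 for the interaction, 4095 for diet and 1096 for genotype when averaged. RLE size factors changed no direction. With total counts only, which put the median gene at 0.25 for diet in LIRKO and 0.22 in Ctrl, calls for diet were 504 higher and 86 lower in LIRKO (204 and 188 with TMM) and 2033 higher and 162 lower in Ctrl (1075 and 839 with TMM), diet in Ctrl gave 0 members by edgeR and diet in LIRKO 590 genes with Ucn3 at 0.15, and Cpe had an interaction of 0.024. Scaling without Ins1, Ins2 and Iapp put Ins2 at 0.018 for genotype on chow and the Pcsk2 interaction at -0.012, and gave 1093 higher and 546 lower calls for diet in Ctrl. Without a filter, Ins2 was 0.014 for genotype on chow and Iapp -0.014 for diet in LIRKO, with 250 genes for diet in LIRKO, 457 genes and 0 members for diet in Ctrl, 2716 genes for averaged diet and 0 members for averaged genotype. DESeq2 gave 311 genes for genotype on HFD, 1638 genes and 2 members on chow, 1089 genes and 2 members for diet in LIRKO, 3965 genes in Ctrl, 47 for the interaction, 6 members for averaged diet and 1745 genes for averaged genotype. Limma's voom with quality weights gave 924 genes and 1 member for genotype on HFD, 3518 genes and 3 members on chow with Ins2 at 0.016, 6104 genes and 7 members for diet in LIRKO with Iapp at -0.27, 73 genes and 0 members in Ctrl, 43 for the interaction with Pcsk2 at -0.24 and Slc30a8 at -0.30, 6713 genes and 9 members for averaged diet, and 3933 genes for averaged genotype with Iapp at -0.017 and Pcsk1 at -0.045. A fit of only the groups compared, which cannot give the interaction or the averages, gave 19 genes for genotype on HFD, 1653 genes and 2 members on chow with Ins2 at 0.0047, 3403 genes and 3 members for diet in LIRKO, and 1 gene and 0 members in Ctrl. Without Ctrl HFD replicates 1 and 2, genotype on HFD gave 193 genes with Ins1 at 0.22 and Ins2 at 0.21, genotype on chow 1765 genes and 1 member with Ins2 at 0.018, diet in LIRKO 1191 genes and 1 member, diet in Ctrl 34 genes and 0 members, the interaction 8 genes with Ins2 at 0.20, Pcsk2 at -0.15 and Slc30a8 at -0.16, averaged diet 2206 genes, and averaged genotype put Ins2 at 0.12 and Pcsk1 at -0.12. On the log2 scale the ratios without them were 0.0046 for Ins1 to Ins2 and -0.25 for Pcsk1 to Pcsk2 between genotypes on HFD, 0.012 for Iapp to insulin between diets in Ctrl, and -0.65 for the Pcsk1 to Pcsk2 difference of differences. With the LIRKO chow pairs summed, genotype on HFD gave 54 genes, on chow 193, diet in LIRKO 7, diet in Ctrl 114 and 0 members, the interaction 0, averaged diet 638, and averaged genotype 507 and 0 members. With the pairs summed and Ctrl HFD replicates 1 and 2 out, genotype on HFD put Ins1 at 0.22 and Ins2 at 0.21, genotype on chow gave 363 genes with Ins2 at 0.023, diet in LIRKO 59, diet in Ctrl 1 and 0 members, the interaction 2 with Ins2 at 0.19, Pcsk2 at -0.15 and Slc30a8 at -0.16, averaged diet 574 genes and 1 member, averaged genotype 709 genes and 0 members with Ins2 at 0.12 and Pcsk1 at -0.12. Leaving out 1 library at a time, genes called ran from 10 to 162 for genotype on HFD, 431 to 1126 on chow, 55 to 502 for diet in LIRKO, 69 to 3877 in Ctrl (the ends being Ctrl chow replicates 6 and 4), 0 to 3 for the interaction, 1286 to 5873 for averaged diet and 606 to 1480 for averaged genotype. Members called ran from 0 to 1 for genotype on chow and for diet in LIRKO, 0 to 2 for diet in Ctrl, 2 to 5 for averaged diet and 0 to 3 for averaged genotype. Ranges that crossed 0 were, for genotype on HFD, Ins2 -0.40 to 0.077, Iapp -0.054 to 0.54, Pcsk1 -0.25 to 0.18 and Pcsk2 -0.29 to 0.0056, for genotype on chow Ins2 -0.10 to 0.066 and Pcsk2 -0.20 to 0.014, for diet in LIRKO Iapp -0.41 to 0.18 and Ucn3 -0.70 to 0.22, for the interaction Ins2 -0.38 to 0.10, Ucn3 -0.20 to 0.72, Pcsk2 -0.17 to 0.13, Cpe -0.074 to 0.061, Pam -0.32 to 0.16 and Slc30a8 -0.19 to 0.20, and for averaged genotype Ins1 -0.15 to 0.10, Ins2 -0.21 to 0.028, Iapp -0.086 to 0.21 and Pcsk1 -0.015 to 0.20. Log2 ratios ran from -0.059 to 0.037 for Ins1 to Ins2 between diets in Ctrl, and the differences of differences from 0.49 to 0.74 for Iapp to insulin and from -0.37 to 0.034 for Pcsk1 to Pcsk2.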

Other observations

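Between 11.8% and 21.5% of a library's reads fell on the 9 genes. Insulin took 10.0% to 16.3% of the counts in LIRKO HFD, 14.3% to 16.9% in LIRKO chow, 8.97% to 18.7% in Ctrl HFD and 11.5% to 16.9% in Ctrl chow. The highest and the lowest share thus both fell in Ctrl HFD.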
